A study of Mus musculus with 15 samples.

Results

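The 9 genes described here are 5 ligands and 4 receptors of the tumor necrosis factor (TNF) superfamily. The ligands were *Tnf*, *Tnfsf9*, *Tnfsf10*, *Tnfsf12* and *Tnfsf13b*, and the receptors were *Tnfrsf1a*, *Tnfrsf1b*, *Tnfrsf9* and *Fas*. They were chosen by symbol, with earlier results of these data known. All 9 were found among the 78317 Ensembl gene identifiers of the count table. RNA was sequenced from MH-S cells, a mouse alveolar macrophage line transformed with SV40, in 5 groups of 3 wells each. M0 cells received medium alone, M1 cells LPS (1 µg/mL) and IFN-γ (20 ng/mL), and M2 cells 20 ng/mL IL-4. The microrod groups received 0.1 mg/mL of rods made of calcium phosphate (CaP) or silicon dioxide (SiO2), both with alginate and coated with layers of protamine and carboxymethyl chitosan. All exposures lasted 24 h. Every group is the same cell line at one passage, and each microrod well held its own particle batch, so the spread between libraries covers wells and particle batches but not passages or animals. No SiO2 or CaP group without the coating and no group with the coating alone was analysed here.

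Total counts per library ranged from 8459643 to 68750050, so 3 counts, taken here as the floor of detection, equal 0.0429 to 0.395 CPM (counts normalised for library size). Of 10 macrophage markers, 1 was under 1 CPM in every library, and their summed level was 1680 to 2320 CPM in M2 and 2770 to 3740 CPM in the other groups. The lysozyme gene *Lyz2* averaged 368 CPM in M2 and 1850 CPM in M0, and without it the sum was 1350 to 1880 CPM in M2 and 1360 to 1630 CPM in M0. Of 6 markers of alveolar macrophages, 5 were under 1 CPM in every library, and the highest level of any of them was 1.85 CPM, so the defining genes of resident alveolar macrophages were nearly absent from this line. Of 29 markers of other cell types, 26 were under 1 CPM in every library. The T cell marker *Lck* was 13.9 to 14.5 CPM in M1 and 4.94 to 11.9 CPM in the other groups, while the other 4 of 5 T cell markers were at or under the floor. The stimuli could be read in their usual genes, since *Il1b* averaged 411 CPM in M1 and 1.07 CPM in M0, and *Arg1* averaged 1550 CPM in M2 and 11.0 CPM in M0. Levels below are CPM on a common TMM scale, given for replicates 1, 2 and 3 in that order. The test was edgeR's quasi-likelihood test over all genes. A gene was called where its adjusted p was under 0.05 and its log2 fold change exceeded 0.5 in either direction. Comparisons that use the same M0 or M1 libraries are not independent of one another. Where the libraries of 2 groups are said not to overlap, the share of all genes that separate so was not counted. An exact permutation test gives a full separation of 3 against 3 libraries p = 0.1, so it is given as a description only. In bulk RNA, fewer cells expressing a gene and less of its RNA per cell cannot be told apart.

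TNF superfamily ligands are mostly membrane proteins that act as trimers and can be released by proteases, and their receptors cluster on binding and recruit adaptor proteins inside the cell. Some receptors, such as those encoded by *Tnfrsf1a* and *Fas*, carry a death domain and can start apoptosis, whereas others, such as those encoded by *Tnfrsf1b* and *Tnfrsf9*, bind TRAF adaptors and activate NF-κB. Macrophages are a main source of TNF, and its transcription, mRNA decay and shedding from the membrane are each controlled.

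The promoters of the 5 genes that were called in M1 against M0 (4 higher and 1 lower of 8 tested, where 9.7% of all genes were higher and 4.37% lower) are shown here because LPS is known to act through NF-κB and AP-1 and interferons through response elements with known letters. The sequences are those of RefSeq on GRCm38.p6, each with 250 bases before and 50 after an annotated start, printed 5′ to 3′ in the direction of transcription. The counts were made by the authors on GRCm39, so these coordinates belong to the reference and not to the count table. Of the 9 members, 7 had a promoter in that table, with 9 starts in all. *Tnfsf9* and *Tnfsf12* had none. Capitals mark the motifs found on either strand, namely the NF-κB consensus, the interferon-stimulated response element (ISRE, GAAANNGAAA), the AP-1 site (TGANTCA) and the TATA box (TATAAA).
Tnf, chr17:35201958-35202257, minus strand: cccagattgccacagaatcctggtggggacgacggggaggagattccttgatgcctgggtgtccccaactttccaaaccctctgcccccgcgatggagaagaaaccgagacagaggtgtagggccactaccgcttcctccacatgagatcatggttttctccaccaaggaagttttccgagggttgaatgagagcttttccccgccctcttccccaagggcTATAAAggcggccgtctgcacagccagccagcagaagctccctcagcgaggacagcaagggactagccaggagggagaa
Tnfrsf1b, chr4:145246821-145247120, minus strand: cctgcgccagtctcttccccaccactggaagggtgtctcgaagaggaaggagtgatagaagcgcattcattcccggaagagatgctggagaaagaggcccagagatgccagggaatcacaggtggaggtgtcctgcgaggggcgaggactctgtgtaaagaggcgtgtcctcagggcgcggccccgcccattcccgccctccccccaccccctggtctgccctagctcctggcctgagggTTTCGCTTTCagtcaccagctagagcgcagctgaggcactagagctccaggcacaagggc
Tnfrsf9, chr4:150927749-150928048, plus strand: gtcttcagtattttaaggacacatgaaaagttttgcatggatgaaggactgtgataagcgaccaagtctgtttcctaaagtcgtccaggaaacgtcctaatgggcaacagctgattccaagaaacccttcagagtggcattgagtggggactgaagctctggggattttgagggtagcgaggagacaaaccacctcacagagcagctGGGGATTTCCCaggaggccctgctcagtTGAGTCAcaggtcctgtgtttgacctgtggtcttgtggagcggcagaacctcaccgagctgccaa
Fas, chr19:34290409-34290708, plus strand: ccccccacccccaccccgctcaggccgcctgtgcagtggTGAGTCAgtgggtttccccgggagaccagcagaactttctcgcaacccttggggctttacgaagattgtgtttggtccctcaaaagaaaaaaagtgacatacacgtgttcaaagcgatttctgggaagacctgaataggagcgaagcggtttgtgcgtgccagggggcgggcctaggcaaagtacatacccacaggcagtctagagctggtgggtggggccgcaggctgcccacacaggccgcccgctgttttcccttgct
Tnfsf13b, chr8:10006383-10006682, plus strand: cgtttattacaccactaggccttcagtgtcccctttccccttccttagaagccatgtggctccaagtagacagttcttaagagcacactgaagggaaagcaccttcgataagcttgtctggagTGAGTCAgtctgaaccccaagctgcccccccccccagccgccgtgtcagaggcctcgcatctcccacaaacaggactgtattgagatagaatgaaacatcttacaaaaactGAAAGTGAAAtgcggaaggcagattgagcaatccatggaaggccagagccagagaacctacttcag

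The 5 windows differed in the motifs they held. *Tnf* held a TATA box that began 29 bases upstream of its start and none of the other 3 motifs. *Tnfrsf1b* held an ISRE 10 bases upstream. The second annotated start of *Tnfrsf9* held 2 overlapping matches to the NF-κB consensus, which began 43 and 42 bases upstream, and an AP-1 site at 15, while its first start held no match. *Fas* held an AP-1 site 211 bases upstream. The second start of *Tnfsf13b*, the gene that was lower in M1, held an ISRE 16 bases upstream and an AP-1 site at 127, while its first start held no ISRE and the same AP-1 site, 39 bases downstream. Among the members that were not called in M1, the windows of *Tnfrsf1a* and *Tnfsf10* held no match. Over all 32851 promoters of the same length, 8.46% held the NF-κB consensus, 3.44% the ISRE, 7.81% the AP-1 site and 13.6% the TATA box. These shares are per window, whereas *Tnfrsf9* and *Tnfsf13b* had 2 windows each. For both genes the second window, which held more matches, is the one printed. Which start the cells use was not measured. A match describes letters in these windows, and binding was not measured.

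*Tnf* (ENSMUSG00000024401) encodes the cytokine TNF itself. Its level was 19.3, 35.8 and 25.0 CPM in M0, 79.5, 123 and 137 CPM in M1, and 14.9, 7.11 and 11.7 CPM in M2. With CaP microrods it was 43.9, 54.6 and 58.1 CPM, and with SiO2 microrods 37.6, 41.4 and 29.0 CPM. Every M1 library was above every other library and every M2 library below every other one, and the CaP libraries lay between M1 and all others. Only the SiO2 and M0 libraries overlapped among groups next to each other in the order M1, CaP, SiO2, M0 and M2. The group means were 113 ± 30.1 CPM in M1, 52.2 ± 7.44 CPM with CaP, 36.0 ± 6.36 CPM with SiO2, 26.7 ± 8.41 CPM in M0 and 11.2 ± 3.91 CPM in M2 (SD, n = 3 each).

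*Tnfsf13b* (ENSMUSG00000031497) encodes BAFF, a survival factor for B cells that myeloid cells make. It was 14.2, 15.6 and 14.4 CPM in M0, 8.43, 8.55 and 7.19 CPM in M1, and 25.8, 22.9 and 21.9 CPM in M2. The microrod groups had 14.7, 11.4 and 13.8 CPM (CaP) and 14.6, 15.2 and 15.7 CPM (SiO2). Here M2 was the high group and M1 the low one, neither overlapping any other group, whereas M0, CaP and SiO2 lay together. The order of *Tnf* at the polarized ends was thus turned around in *Tnfsf13b*, and over the 15 libraries their log2 CPM had a Pearson correlation of -0.92, which is a description of 15 points that fall into 5 groups.

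*Tnfsf9* (ENSMUSG00000035678) encodes the ligand of CD137, the receptor that *Tnfrsf9* encodes. It was 76.6, 109 and 111 CPM in M0, 90.3, 85.5 and 90.7 CPM in M1, and 66.8, 88.0 and 47.6 CPM in M2. With CaP microrods the libraries had 138, 133 and 109 CPM, and with SiO2 microrods 139, 133 and 138 CPM. The SiO2 libraries were above all M0, M1 and M2 libraries, but each group overlapped its neighbour in the order SiO2, CaP, M0, M1 and M2. In the reference annotation 14.9% of its exon bases are shared with the opposite-strand gene *Gm11110*, and the library kit does not mark the strand, so reads of the shared part cannot be assigned.

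The other ligands were at the edge of detection or below it. *Tnfsf10* (ENSMUSG00000039304), which encodes the apoptosis-inducing ligand TRAIL, had 3 to 41 counts per library. Its level was 0.764, 0.195 and 0.463 CPM in M0 and 1.03, 1.3 and 1.07 CPM in M1, so the M1 libraries were above the M0 ones. It was 0.546, 0.395 and 0.587 CPM in M2, 0.82, 0.329 and 0.324 CPM with CaP, and 0.392, 0.681 and 0.872 CPM with SiO2. *Tnfsf12* (ENSMUSG00000097328), which encodes TWEAK, had 0 to 2 counts in every library and was not tested. In the reference 48.3% of its exon bases belong also to the read-through gene *Tnfsfm13*, and the counting step may have divided reads between them.

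*Tnfrsf1b* (ENSMUSG00000028599) encodes TNFR2, the TNF receptor without a death domain. It was 10.6, 13.9 and 13.1 CPM in M0 and 71.0, 92.8 and 89.5 CPM in M1. The M2 libraries had 11.3, 10.7 and 10.0 CPM, the CaP libraries 7.69, 14.7 and 16.2 CPM and the SiO2 libraries 11.0, 16.1 and 14.2 CPM. M1 stood alone, with its lowest library above the highest of the other 12, and the other 4 groups overlapped their neighbours.

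*Tnfrsf1a* (ENSMUSG00000030341) encodes TNFR1, the TNF receptor with a death domain, which most cells carry. Its level was 15.6, 21.5 and 17.8 CPM in M0, 14.6, 21.2 and 19.5 CPM in M1 and 26.4, 15.4 and 20.8 CPM in M2. It was 16.7, 24.7 and 27.0 CPM with CaP and 17.2, 22.6 and 18.0 CPM with SiO2. All groups overlapped their neighbours, and the group means lay between 18.3 and 22.8 CPM.

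*Tnfrsf9* (ENSMUSG00000028965) encodes CD137, a costimulatory receptor known best from activated T cells. It was 7.01, 8.39 and 9.96 CPM in M0, 12.9, 19.3 and 23.3 CPM in M1, and 6.69, 6.71 and 4.21 CPM in M2. CaP libraries had 14.1, 18.0 and 24.2 CPM and SiO2 libraries 14.9, 13.6 and 14.0 CPM. The CaP, M1 and SiO2 libraries overlapped one another and were all above the M0 libraries, which in turn were all above the M2 libraries.

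*Fas* (ENSMUSG00000024778) encodes the death receptor CD95. Its level was 2.9, 3.58 and 4.05 CPM in M0, 13.2, 11.8 and 11.4 CPM in M1, and 2.73, 3.82 and 2.4 CPM in M2. It was 3.79, 3.68 and 3.16 CPM with CaP and 2.99, 3.1 and 2.46 CPM with SiO2. As with *Tnfrsf1b*, the M1 libraries were above all 12 others and the other groups overlapped their neighbours. *Fasl*, the gene of its ligand, did not pass the filter on low counts.

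**Figure D1:**
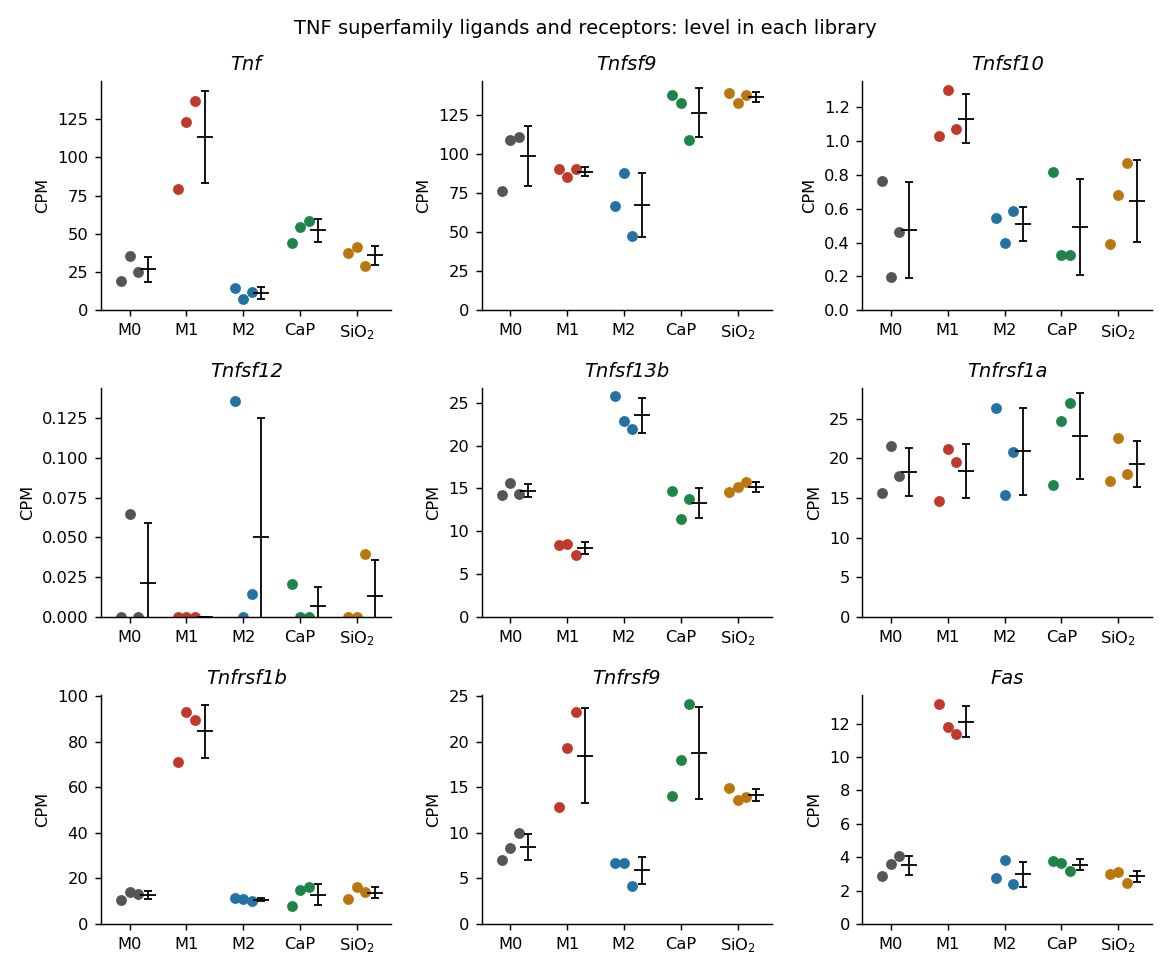
Level of each of the 9 genes in CPM (vertical axes, each starting at 0) in the libraries of the 5 groups. Points are libraries and the horizontal ticks with bars are means ± SD (n = 3). *Tnfrsf1b* and *Fas* stand out in M1 alone, *Tnf* is ordered from M1 over CaP down to M2, *Tnfsf13b* is highest in M2, and *Tnfsf12* had 0 to 2 counts per library.

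Per kilobase of merged exon sequence in the reference annotation, the genes could be set side by side. In M0 the ligand *Tnfsf9* had the highest level, at 76.6 RPKM, followed by *Tnf* at 16.3 RPKM. *Tnfrsf1a* was at 7.06, *Tnfrsf1b* at 3.28, *Tnfrsf9* at 3.11, *Tnfsf13b* at 2.15, *Fas* at 1.7 and *Tnfsf10* at 0.09 RPKM. In M1 *Tnf* reached 69 RPKM, next to 68.9 RPKM for *Tnfsf9*, and *Tnfrsf1b* reached 22.1 RPKM against 7.11 RPKM for *Tnfrsf1a*. These lengths are of another annotation release than the counts, so the order of genes close in level is uncertain.

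The comparison of M1 with M0 shows what LPS with IFN-γ did to these genes. Of the 8 members tested, *Tnf*, *Tnfrsf1b*, *Tnfrsf9* and *Fas* rose, *Tnfsf13b* fell, and *Tnfsf9*, *Tnfsf10* and *Tnfrsf1a* were not called. Over all 16654 genes tested, 9.7% were called higher and 4.37% lower. The largest change was in *Tnfrsf1b*, with a log2 fold change of 2.76 ± 0.26 (SE, adjusted p = 8.4e-06 from edgeR), followed by *Tnf* with 2.09 ± 0.30 (adjusted p = 0.000312) and *Fas* with 1.83 ± 0.21 (adjusted p = 5.64e-05). *Tnfrsf9* rose by 1.15 ± 0.27 on the log2 scale (adjusted p = 0.0122), and *Tnfsf13b* fell by 0.87 ± 0.16 (adjusted p = 0.00273). The call of *Tnfrsf9* was lost without M1 replicate 3 (adjusted p = 0.0624) or M0 replicate 1 (adjusted p = 0.0654), and that of *Tnfsf13b* without a filter on low counts (adjusted p = 0.0629). For *Tnfsf10* the difference was 1.05 with a 95% interval from 0.01 to 2.09 (adjusted p = 0.175). For *Tnfrsf1a* it was 0.02 with an interval from -0.51 to 0.55, and for *Tnfsf9* it was -0.15 with an interval from -0.60 to 0.29. The median log2 fold change of the tested members was 1.1, beside -0.01 over all genes. As the members were chosen with earlier results of these data known, this describes these genes and not the whole family. Among the markers of other cell types, *Lck* also rose in M1, and its part in these changes was not tested.

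In M2, which received IL-4, *Tnfsf13b* rose and *Tnf* fell, and the other 6 tested members were not called. Over all genes 2% were called higher and 2.13% lower. *Tnfsf13b* was higher by 0.68 ± 0.15 on the log2 scale (SE, adjusted p = 0.0252 from edgeR), and *Tnf* fell by 1.22 ± 0.30 (adjusted p = 0.0359). For each of these genes the M2 and M0 libraries did not overlap. *Tnfsf9* differed by -0.56 with a 95% interval from -1 to -0.11 (adjusted p = 0.172), and its M2 and M0 libraries overlapped. *Tnfrsf9* also differed by -0.56, with an interval from -1.17 to 0.06 (adjusted p = 0.35), and its libraries did not overlap. The receptors *Tnfrsf1a*, *Tnfrsf1b* and *Fas* differed by 0.20, -0.23 and -0.28, and *Tnfsf10* by 0.01. Neither call held under every alternative. *Tnf* lost its call without M2 replicate 2 or 3 or M0 replicate 2 or 3 (adjusted p from 0.0569 to 0.113), and *Tnfsf13b* without M2 replicate 1 or 3 or M0 replicate 1 or 3 (adjusted p from 0.0517 to 0.113). In a model of the 6 libraries compared both were lost (adjusted p = 0.264 for *Tnf* and 0.286 for *Tnfsf13b*), and *Tnfsf13b* also without a filter (adjusted p = 0.335) and with thinned counts (adjusted p = 0.0607). The direction was the same in each of these fits, and without M2 replicate 2, the library least like its group, *Tnfsf9* was called lower (log2 fold change -0.80, adjusted p = 0.0257). Among the macrophage markers *Lyz2* fell in M2 (edgeR adjusted p = 3.1e-06, log2 fold change -2.33) and *Adgre1* rose (adjusted p = 0.00908, log2 fold change 1.66), and their part in these values was not tested.

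Against M0, neither microrod group had a member past the threshold. This was tested in the 9 libraries of M0, CaP and SiO2, where 0.409% of 16621 genes were called with CaP and 0.0602% with SiO2. With CaP microrods *Tnfrsf9* had a log2 fold change of 1.17 ± 0.23 (95% interval 0.65 to 1.70, adjusted p = 0.077 from edgeR) and *Tnf* 0.97 ± 0.25 (0.42 to 1.52, adjusted p = 0.123). For both genes all 3 CaP libraries were above all 3 M0 libraries. These were the 2 of 8 tested members with an unadjusted p under 0.05, which 18% of all genes had. DESeq2, the test the authors used, called both (adjusted p = 0.00132 for *Tnfrsf9* and 0.0189 for *Tnf*), while calling 1.85% of all genes higher. In edgeR *Tnfrsf9* was called without CaP replicate 1 (adjusted p = 0.0287) and *Tnf* without M0 replicate 2 (adjusted p = 0.0443). *Tnfsf9* differed by 0.36 (-0.03 to 0.75), *Tnfrsf1a* by 0.32 (-0.19 to 0.83), *Tnfrsf1b* by 0.04 (-0.61 to 0.69), *Fas* by 0.05 (-0.44 to 0.55), *Tnfsf13b* by -0.14 (-0.50 to 0.23) and *Tnfsf10* by -0.03 (-1.24 to 1.18), with 95% intervals in brackets.

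With SiO2 microrods, 0 members were called by edgeR or DESeq2, and 2 of 8 had an unadjusted p under 0.05, as had 9.27% of all genes. They were *Tnfrsf9*, with a log2 fold change of 0.77 ± 0.24 (95% interval 0.24 to 1.30, adjusted p = 0.387 from edgeR), and *Tnfsf9*, with 0.47 ± 0.17 (0.08 to 0.86, adjusted p = 0.478). In both genes the SiO2 libraries were all above the M0 libraries. *Tnf* differed by 0.43 (-0.12 to 0.98), *Tnfrsf1a* by 0.08 (-0.44 to 0.59), *Tnfrsf1b* by 0.14 (-0.51 to 0.79), *Fas* by -0.27 (-0.79 to 0.25), *Tnfsf13b* by 0.04 (-0.32 to 0.41) and *Tnfsf10* by 0.26 (-1.03 to 1.54).

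The microrods were compared directly at the same mass per volume and time. Per the study, the rods differ in density, so equal mass holds unequal numbers of rods, and material and rod number cannot be told apart. Here 0 of 8 members were called by edgeR, 0 had an unadjusted p under 0.05 (1.87% of all genes had) and 0 were called by DESeq2, and over all genes edgeR called 0.0241%. *Tnf* was 0.54 ± 0.24 higher with CaP than with SiO2 on the log2 scale (95% interval -0.01 to 1.08, unadjusted p = 0.0524, adjusted p = 1 from edgeR), and its CaP libraries were all above its SiO2 libraries. *Tnfrsf9* differed by 0.41 (-0.10 to 0.91), *Fas*, whose libraries did not overlap either, by 0.32 (-0.17 to 0.82), *Tnfrsf1a* by 0.24 (-0.26 to 0.75), *Tnfsf9* by -0.11 (-0.50 to 0.28), *Tnfrsf1b* by -0.10 (-0.74 to 0.54) and *Tnfsf13b* by -0.18 (-0.54 to 0.18). The least precise was *Tnfsf10*, with -0.29 (-1.47 to 0.89). These intervals leave room for differences of either sign in all 8 genes.

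**Figure D2:**
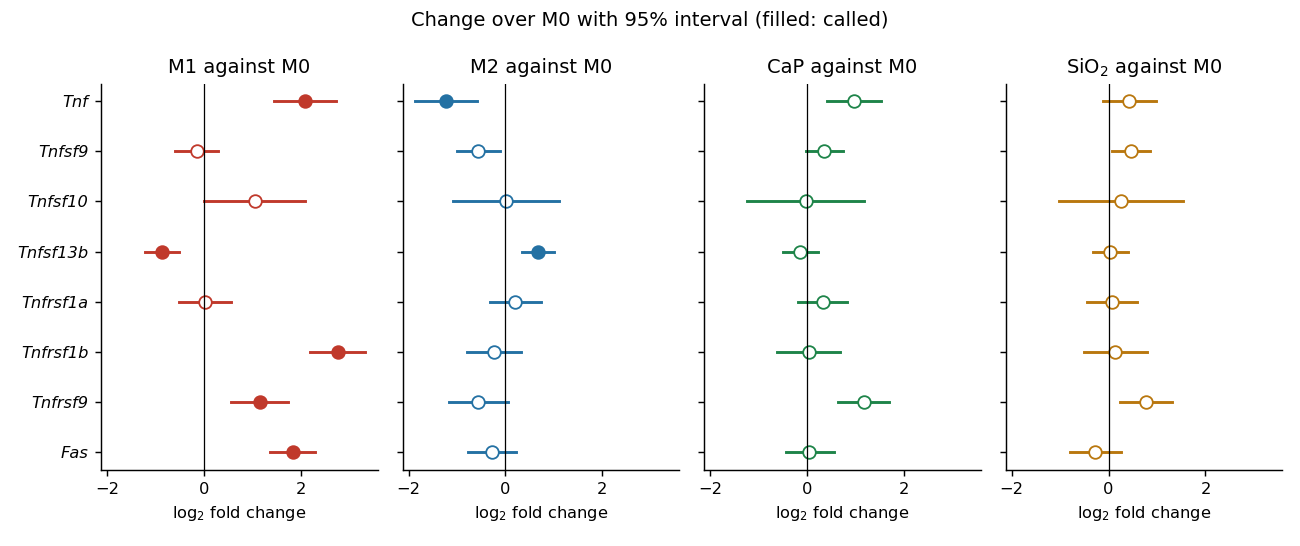
Log2 fold change over M0 (horizontal axes) of the 8 tested genes in M1, M2, CaP and SiO2. Circles are edgeR estimates, bars are 95% intervals, and filled circles passed the threshold. Filled circles are in M1 (*Tnf*, *Tnfsf13b*, *Tnfrsf1b*, *Tnfrsf9*, *Fas*) and M2 (*Tnf*, *Tnfsf13b*). The intervals of *Tnf* and *Tnfrsf9* with CaP, and those of *Tnfsf9* and *Tnfrsf9* with SiO2, lie above 0.

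**Figure D3:**
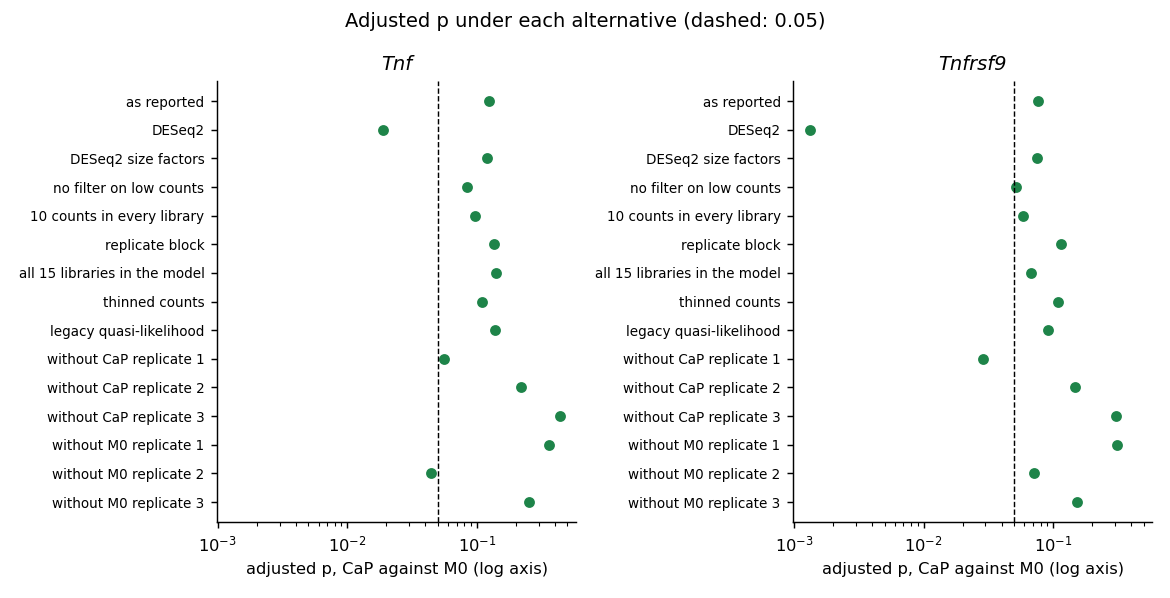
Adjusted p (horizontal log axes) of *Tnf* and *Tnfrsf9* in CaP against M0, as reported and under each of the other settings, with a dashed line at 0.05. The points left of the line are DESeq2 for both genes, the fit without CaP replicate 1 for *Tnfrsf9* and the fit without M0 replicate 2 for *Tnf*.

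Set against M1, 4 of the 8 tested members differed in each microrod group. With CaP, *Tnf*, *Tnfrsf1b* and *Fas* were lower than in M1 and *Tnfsf13b* was higher, and over all genes 9.11% were called lower and 3.54% higher. The log2 fold changes against M1 were -2.72 ± 0.26 for *Tnfrsf1b* (SE, adjusted p = 7.88e-06 from edgeR), -1.78 ± 0.20 for *Fas* (adjusted p = 4.6e-05), -1.12 ± 0.28 for *Tnf* (adjusted p = 0.0184) and 0.73 ± 0.16 for *Tnfsf13b* (adjusted p = 0.00777). *Tnf* lost its call without CaP replicate 1 or 2 or M1 replicate 2 or 3 (adjusted p from 0.05 to 0.0841), and *Tnfsf13b* without a filter on low counts (adjusted p = 0.128). The call of *Tnfsf13b* was also lost in a model of the 6 libraries compared (adjusted p = 0.0512). *Tnfrsf9*, which was higher in M1 than in M0, differed by 0.02 (95% interval -0.54 to 0.58) between CaP and M1. *Tnfsf10* differed by -1.08 (-2.05 to -0.12, adjusted p = 0.141) and was called without CaP replicate 1 (adjusted p = 0.0241). With SiO2 the same 4 genes were called in the same directions, where 7.67% of all genes were lower and 2.79% higher. Their log2 fold changes were -2.62 ± 0.26 for *Tnfrsf1b* (adjusted p = 1.28e-05), -2.10 ± 0.21 for *Fas* (adjusted p = 1.63e-05), -1.66 ± 0.29 for *Tnf* (adjusted p = 0.00182) and 0.91 ± 0.16 for *Tnfsf13b* (adjusted p = 0.00208). *Tnfrsf9* differed from M1 by -0.38 (-0.95 to 0.18) and *Tnfsf9* by 0.62 (0.18 to 1.07, adjusted p = 0.0741), the latter being called by DESeq2 (adjusted p = 0.0411).

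Ratios of a pair of members within a library do not depend on its depth and are given per kilobase of exon, as a description. *Tnfrsf1b* over *Tnfrsf1a*, the ratio of both TNF receptors, was 0.463, 0.440 and 0.498 in M0 and 3.3, 2.97 and 3.11 in M1. It averaged 0.363 ± 0.0945 in M2, 0.375 ± 0.0536 with CaP and 0.485 ± 0.0513 with SiO2 (SD, n = 3). Per kilobase, *Tnfrsf1a* was therefore above *Tnfrsf1b* in all 12 libraries outside M1 and below it in all 3 M1 libraries. *Tnf* over *Tnfsf13b* averaged 60.0 ± 20.2 in M1, 16.7 ± 3.91 with CaP, 9.97 ± 1.95 with SiO2, 7.54 ± 1.98 in M0 and 1.99 ± 0.601 in M2. Its CaP libraries (12.5, 20.1 and 17.6) were above its M0 libraries (5.69, 9.62 and 7.30). *Tnfsf9* over *Tnfrsf9*, a ligand over its own receptor, was 23.1, 27.4 and 23.5 in M0 and 14.8, 9.32 and 8.20 in M1. It was 21.1, 27.7 and 23.9 in M2, 20.6, 15.6 and 9.53 with CaP, and 19.8, 20.5 and 20.9 with SiO2. The libraries of both microrod groups were below the M0 libraries in this ratio.

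**Figure D4:**
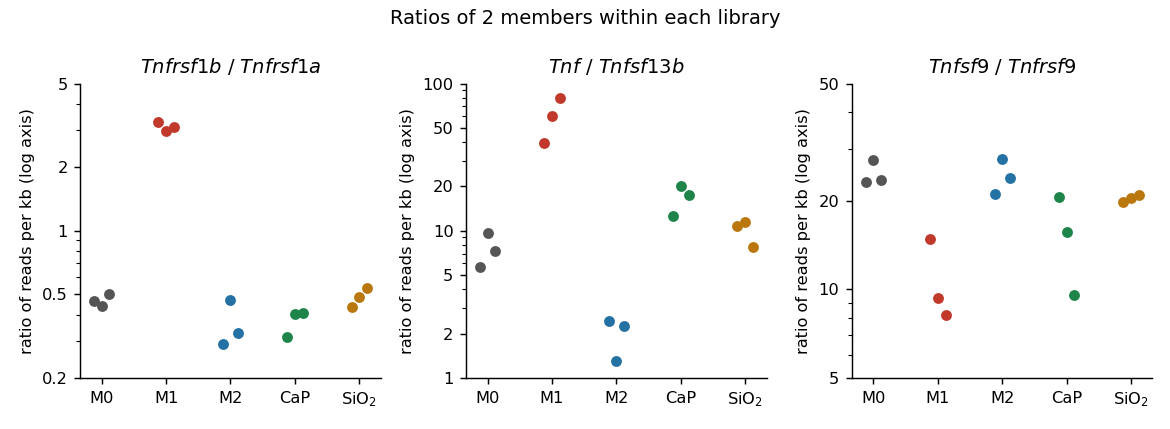
Ratio of reads per kilobase of 2 genes in each library (points, log axes) by group. The ratio of *Tnfrsf1b* to *Tnfrsf1a* is above 1 in the 3 M1 libraries only, *Tnf* over *Tnfsf13b* runs from 1.30 in an M2 library to 79.9 in an M1 library, and *Tnfsf9* over *Tnfrsf9* is lowest in M1 and in CaP replicate 3.

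The rest of the superfamily was measured in the same libraries. Of 13 other ligands, 7 were at or under 3 counts in every library and 3 were tested in the model of 15 libraries, among them *Lta* and *Ltb*, the RefSeq neighbours of *Tnf* on either side. *Lta*, which encodes lymphotoxin-α, was the ligand called in M1. It was 3.27, 4.38 and 5.35 CPM in M1 against 0.158, 0.065 and 0.116 CPM in M0 (edgeR adjusted p = 5.81e-07, log2 fold change 5.02 ± 0.41), where M0 libraries held 1 to 6 counts. *Ltb*, which encodes lymphotoxin-β, had 3.85, 3.32 and 4.05 CPM in M0 and 3.01, 3.08 and 4.37 CPM in M1, with a log2 difference of -0.11 (95% interval -0.63 to 0.41). The ligand called in M2 was *Tnfsf14*, which encodes LIGHT, with 2.39, 2.37 and 2.78 CPM in M2 against 0.421, 0.846 and 1.51 CPM in M0 (log2 fold change 1.78, adjusted p = 0.0193), a call lost without M2 replicate 3 or M0 replicate 1. The median log2 fold change of the tested other ligands was 0.02 in M1 and -0.33 in M2, beside -0.01 and 0.07 over all genes.

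Among 24 other receptors, of which 14 were tested, 4 were higher in M1 than in M0 and 0 lower, beside 9.7% and 4.37% of all genes. *Tnfrsf8*, which encodes CD30, rose from 0.158, 0.195 and 0.116 CPM to 8, 6.77 and 8.36 CPM (edgeR adjusted p = 3.28e-08, log2 fold change 5.53 ± 0.35), with 1 to 6 counts in the M0 libraries. *Tnfrsf10b*, a mouse receptor for TRAIL, rose by 1.01 (adjusted p = 0.00323). *Tnfrsf13b*, which encodes the BAFF receptor TACI, rose by 0.79 (adjusted p = 0.0254) and *Cd40*, a receptor for T cell help, by 0.74 (adjusted p = 0.0181). The call count was 2 in place of 4 without a filter on low counts and without M1 replicate 3, M0 replicate 1 or M0 replicate 2. In M2 *Cd40* was higher (76.9, 101 and 54.0 CPM against 33.2, 33.4 and 37.9 CPM, log2 fold change 1.14, adjusted p = 0.00323) and *Tnfrsf11a*, which encodes RANK, was lower (log2 fold change -0.87, adjusted p = 0.0164), beside 2% and 2.13% of all genes. The count in M2 was 4 without a filter, 0 in a model of the 6 libraries alone, and 1 without M2 replicate 1, M2 replicate 3 or M0 replicate 1. The median log2 fold change of the tested receptors was 0.24 in M1 and -0.18 in M2.

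Of 29 genes that act close to the receptors inside the cell, all tested, 5 rose in M1 and 0 fell, beside 9.7% and 4.37% of all genes. The largest rise was in *Traf1*, a TRAF adaptor that binds TNFR2 complexes, from 3.69, 6.89 and 4.52 CPM in M0 to 28.4, 38.6 and 39.5 CPM in M1 (edgeR adjusted p = 5.99e-06, log2 fold change 2.83 ± 0.26). *Tnip1*, a partner of the NF-κB inhibitor A20, rose by 1.44 (adjusted p = 0.00682), *Ikbkg*, the regulatory subunit of the IKK complex, by 0.94 (adjusted p = 0.000954) and *Traf2*, another TRAF adaptor, by 0.90 (adjusted p = 0.0203). The count was 3 without M1 replicate 2 or M1 replicate 3. In M2 edgeR called 0 of the 29 and DESeq2 called 1, while 5 had an unadjusted p under 0.05, as had 17.2% of all genes. The count was 1 without M2 replicate 2 or M0 replicate 1. The median log2 fold change of this list was 0.27 in M1 and 0.06 in M2, beside -0.01 and 0.07 over all genes.

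Of 11 genes that release TNF from the membrane or act on its mRNA, 9 were tested. In M1, 3 rose and 1 fell, beside 9.7% and 4.37% of all genes. *Zfp36*, which encodes tristetraprolin, a factor that speeds decay of *Tnf* mRNA, rose by 2.44 ± 0.49 on the log2 scale (adjusted p = 0.00452 from edgeR). *Zc3h12a*, which encodes the ribonuclease Regnase-1, rose by 1.97 ± 0.25 (adjusted p = 0.000121), and *Rhbdf2*, which is needed for the maturation of the TNF sheddase ADAM17, by 0.98 ± 0.29 (adjusted p = 0.0349). *Zfp36l2*, a relative of *Zfp36*, fell by 1.06 ± 0.32 (adjusted p = 0.0386), though its libraries overlapped. They had 32.8, 13.8 and 16.6 CPM in M0 and 14.3, 8.82 and 7.68 CPM in M1. The count of these calls was 2 in place of 4 in a model of the 6 libraries alone and without M1 replicate 2, M1 replicate 3 or M0 replicate 1. *Adam17* itself averaged 5.16 RPKM in M0 and 4.23 RPKM in M1 and was not called. In M2 *Zfp36l1* was higher (log2 fold change 1.26, adjusted p = 0.0444), with 55.9% of its exon bases shared with the opposite-strand gene *Gm26669*, and this call was lost without M2 replicate 1, M2 replicate 3 or any M0 replicate. The median log2 fold change was 0.10 in M1 and 0.06 in M2.

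With either microrod, 0 tested genes of these 4 lists were called against M0 by edgeR or DESeq2. *Lta* and *Tnfrsf8* did not pass the filter in these 9 libraries and were not tested. *Lta* averaged 0.113 CPM in M0, 0.426 CPM with CaP and 0.162 CPM with SiO2. *Tnfrsf8* averaged 0.156, 0.178 and 0.521 CPM in the same order. At an unadjusted p under 0.05 there were 0 of 2 other ligands, 3 of 13 other receptors, 6 of 29 signalling genes and 4 of 9 shedding and mRNA control genes with CaP, beside 18% of all genes. With SiO2 there were 0, 1, 5 and 0 of the same, beside 9.27% of all genes. Without CaP replicate 1, edgeR called 3 signalling genes and 2 shedding and mRNA control genes. The share of all genes called in that fit was not counted. Between CaP and SiO2, 0 were called by edgeR or DESeq2 and 1 receptor had an unadjusted p under 0.05, as had 1.87% of all genes. The medians with CaP were -0.15, 0.13, 0.04 and -0.05 in that order, beside 0.06 over all genes, and with SiO2 0.12, 0.05, -0.01 and -0.09, beside -0.02.

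Against M1, both microrod groups were lower in *Lta* (log2 fold change -3.41 with CaP and -4.76 with SiO2), *Tnfrsf8* (-5.35 and -3.89) and *Traf1* (-2.22 and -2.71), which were also the genes of their lists with the largest rise in M1 over M0. Of the other receptors, 4 were lower and 1 higher with CaP, and 3 lower with SiO2. The one that was higher was *Tnfrsf4*, which encodes OX40, with 1.54, 2.04 and 1.30 CPM with CaP and 0.258, 0.410 and 0.292 CPM in M1 (edgeR adjusted p = 0.0111, log2 fold change 2.24). Its M1 libraries held only 3 to 6 counts, near the floor, and it was 0.843, 1.11 and 0.579 CPM in M0. Of the signalling genes 3 were lower with CaP and 4 with SiO2, and of the shedding and mRNA control genes 1 and 2. Over all genes 9.11% were lower and 3.54% higher with CaP, and 7.67% lower and 2.79% higher with SiO2. DESeq2 called 7 signalling genes lower with CaP, and the share of all genes it called against M1 was not counted. With any 1 library left out, the CaP count of receptors called in either direction was 3 or 4, under the reported count in every fit. It was 3 without M1 replicate 1. The CaP count of signalling genes was 2 to 5 in these fits, and 5 without CaP replicate 2. The SiO2 signalling count was 1 or 2 without any one of the 6 libraries, and the SiO2 count of shedding and mRNA control genes was 1 without any of them but M1 replicate 1. *Zc3h12a* was lower with both (-2.10 and -2.11) and was the 1 gene of its list called with CaP. *Zfp36*, with the largest rise of that list in M1 over M0, averaged 69.4 CPM in M1 and 29.1 CPM with CaP and was not called.

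**Figure D5:**
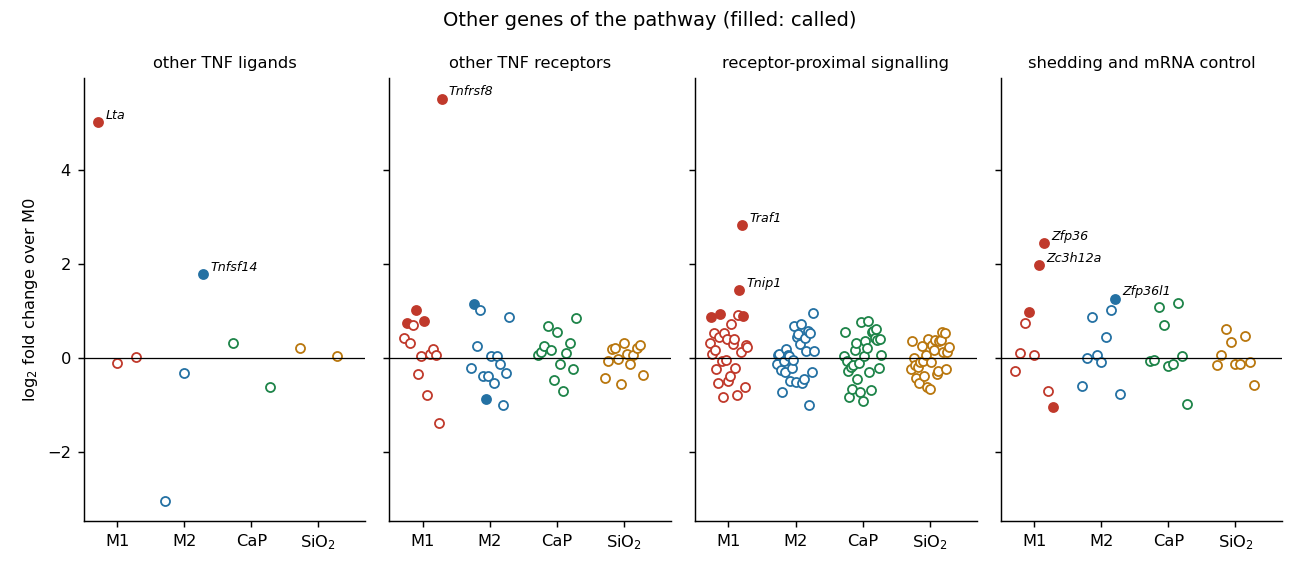
Log2 fold change over M0 (vertical axis) of the tested genes of 4 lists in M1, M2, CaP and SiO2. Each circle is a gene, filled where it passed the threshold, and the genes with the largest called changes are named. The filled circles lie in the M1 and M2 columns, and *Lta* and *Tnfrsf8* are the farthest from 0.

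The genes whose log2 CPM followed each member most closely over the 15 libraries were taken from 10728 genes. Where a member differed between groups, such a correlation reflects mainly the 5 groups and gives no independent points within them. The values for *Tnfrsf1a* follow mainly the spread of libraries within groups. For *Tnf* they were *Slc11a1* (Pearson r 0.972), *Ccrl2* (0.965) and the chemokine gene *Cxcl2* (0.963). For *Tnfrsf1b* they were *Tspan3* (0.986), *Aoah* (0.974) and *Wfdc21* (0.974), and for *Fas* *Tigar* (0.988), *Fam49a* (0.984) and *Bcl2a1b* (0.973). *Tnfsf13b* was followed by *Khk* (0.964), *Cd300lg* (0.963) and *Mxd4* (0.957), and *Tnfrsf9* by *Smim3* (0.930), *Kif3c* (0.917) and *Rhoc* (0.912). For *Tnfsf9* the nearest were *Cd9* (0.941), *Fggy* (0.936) and the chemokine receptor gene *Ccr1* (0.936), and for *Tnfrsf1a*, which differed little between groups, *Srebf1* (0.971), *Dhx16* (0.957) and *Ppp1r16a* (0.953). The values for the low gene *Tnfsf10* (*Vmn2r63* 0.832, *Nol4l* 0.828, *Samd15* 0.823) rest on few counts. Among the members, *Tnfrsf1b* and *Fas* had r = 0.93, and *Tnf* and *Tnfrsf9* r = 0.86.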

How the data were processed

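RNA of MH-S cells was sequenced by the authors as Smart-seq2 libraries, which hold amplified full-length cDNA, no molecular identifiers and no strand. They processed the reads with nf-core/rnaseq (STAR and Salmon) on an Ensembl annotation, and the labels name GRCm39 as the build. The deposited table holds counts, whole numbers per gene and library without normalization, which may be rounded Salmon estimates, and 0 columns were left unused. Reads of overlapping genes may have been divided by that step.

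The analysis used edgeR 4.0.16, limma 3.58.1 and DESeq2 1.42.0 under R 4.3.3, with filterByExpr by group, TMM scaling, the quasi-likelihood test and Benjamini-Hochberg adjustment over all genes tested. A model of 15 libraries (16654 genes) served comparisons with M1 and M2, and one of 9 libraries (16621 genes) those between M0, CaP and SiO2, as the authors did. CPM use the TMM scale of the 15 libraries. Correlations were of log2 CPM (prior count 2), with candidate genes averaging 5 CPM or more in any group. In M1 and M0, libraries of the same replicate number deviated together (r from 0.206 to 0.292 in all 3 pairs), although the labels name no shared unit. The reported tests compared group means without this pairing. With the replicate number as a block, the calls of the 8 members in M1 against M0 were the same.

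The members and gene lists were chosen with earlier results of these data known. All members are named, together with the called genes of each list, at most the 4 with the largest change per comparison, and the 3 genes most like each member except *Tnfsf12*, for which they are not reported here. *Ltb* and *Adam17* were named outside this rule after their values were seen. Names, exon lengths and overlaps came from GENCODE vM21 and promoters from RefSeq, both on GRCm38. The tests were checked on simulated counts. Replicate libraries differed by more than sampling noise in all 15 pairs. The floor covers counting error only, whereas the 95% intervals come from the fit and include the spread between libraries. An exact permutation test of 3 against 3 libraries cannot give a p below 0.1, so p-values come from models over all genes, and they measure the spread between wells. Alternatives were DESeq2, DESeq2's size factors, no filter, at least 10 counts in every library, a replicate block, other libraries in the model, thinned counts, each library left out in turn and, added after seeing the data, the legacy quasi-likelihood.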

Additional observations from a re-analysis of the deposited data

How the results depend on the processing

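No member changed direction past the threshold under any alternative. Of the fold changes of members, 737 of those recomputed stayed on their side of the threshold, 24 lost their call and 8 gained one, and the cause was not tested. The number of members called in M1 against M0 was 5, and 4 or 5 under every alternative run. In M2 against M0 it was 2 as reported, 1 without a filter on low counts, 1 with thinned counts, 0 in a model of the 6 libraries compared, and 0 to 2 with 1 library left out. With a replicate block in edgeR it was 0 (*Tnf* adjusted p = 0.0717, *Tnfsf13b* 0.0553). Same-numbered M2 and M0 libraries did not deviate together (r from -0.704 to -0.0572). With 3 libraries a group, such correlations cannot show whether the numbers mark a shared unit. In no other comparison besides M1 against M0 were all pairs over 0.1. The block changed the number of members called in no other comparison. In CaP against M0 the count was 0 as reported, 2 with DESeq2 and 0 to 1 with 1 library left out. It was 3 or 4 in CaP against M1, 3 to 5 in SiO2 against M1, and 0 under every alternative in SiO2 against M0 and CaP against SiO2. *Tnfsf13b* lost its call without a filter in all 4 comparisons where it was called (adjusted p from 0.053 to 0.335). Of the recomputed list counts, 59 moved by over 1.5 times and 333 did not. The share of all genes called under the alternatives is not given, except for DESeq2 in CaP against M0. With 3 libraries a group and 3 to 41 counts, *Tnfsf10* could not be measured to better than the intervals given, and for *Tnfsf12* the depth allows no statement.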
